A study of Mus musculus with 14 samples.

Results

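Hippocampal RNA was examined for 7 genes that encode subunits of the GABA-A receptor, Gabra2, Gabra3, Gabra4, Gabra5, Gabrb1, Gabrb2 and Gabrd. They were chosen by name, as the rows of the count table with these symbols, and were 7 of 24421 genes in that table. All 7 passed the filter on low counts that left 14897 genes for testing. The study sequenced total RNA, after removal of ribosomal RNA, from 7 naive male mice labelled LPAR2-/- and 7 naive male WT mice, with LPAR2 being a receptor for the lipid mediator lysophosphatidic acid. All mice were of strain 129.C57Bl6 and received no treatment. The sample labels give an age of 10 to 12 weeks for every mouse, whereas the study's own design note calls the mice middle-aged to aged, so that the age is uncertain. The knockout allele lacks part of exon 2 of Lpar2. Controls, on a mix of C57BL/6 and 129/SvJ, and homozygous knockouts came from separate colonies, so that genotype and colony cannot be told apart. The labels call the tissue hippocampus and the study's text also dentate gyrus, and markers of dentate granule cells, CA1 and CA3 were detected in every mouse.

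The GABA-A receptor is a chloride channel opened by the transmitter GABA and carries most of the fast inhibition in the brain. It is a pentamer, usually built of alpha and beta subunits together with a gamma or a delta subunit, and the combination sets where the receptor sits and how it responds. Receptors with a gamma subunit serve mostly at synapses, whereas receptors with delta or alpha5 sit largely outside of the synapse and carry a sustained, tonic inhibition, in the dentate gyrus mainly as combinations of alpha4, beta and delta.

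Some facts of the libraries touch every comparison below. Total counts ranged from 15434620 to 23258949 per mouse, with medians of 19499276 in mice labelled LPAR2-/- and 19964167 in WT mice. Lpar2 itself went against the knockout label, with 144 to 234 counts in the 7 libraries labelled LPAR2-/- and 27 to 66 counts in the 7 WT libraries (means of 9.55 against 2.36 CPM, a counts-per-million value scaled to library size, log2 fold change 2.01, SE 0.157, adjusted p = 8.2e-07). The count covers the whole gene and does not separate the deleted stretch, so that the direction is given throughout for the libraries as labelled. Of 16 lists of cell type markers, the summed level of 1, the striatal list, differed between the groups, with 79.0 ± 4.13 CPM in libraries labelled LPAR2-/- and 70.2 ± 3.09 in WT (SD, n = 7, exact two-sided permutation test, p = 0.000583, adjusted over the lists p = 0.00932). All 7 measured genes of that list had counts, its part in the differences below was not tested, and the 4 hemoglobin genes had no count in any mouse.

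The 7 genes lie on 5 chromosomes of the mouse genome (mm10). Gabra2 (chr5:70961057-71095849, minus strand, 10 exons), Gabra4 (chr5:71569734-71658308, minus strand) and Gabrb1 (chr5:71700016-72137244, plus strand) are neighbours within 1176188 bases, with Gabra4 and Gabrb1 pointing away from each other. These 2 genes are 41707 bases apart in the coordinates used for counting, whereas in GENCODE Gabrb1 starts at 71658113, inside of Gabra4, and overlaps 196 of its counted exon bases on the opposite strand. Gabra5 is at chr7:57407669-57510009 on the minus strand, Gabrb2 at chr11:42419757-42632591 on the plus strand, Gabrd at chr4:155384979-155398069 on the minus strand and Gabra3 at chrX:72432676-72656246 on the minus strand. Reads were counted over exons only. The coding share of the counted bases in GENCODE ranged from 18.8% for Gabrb2, with 7552 counted bases, to 76.5% for Gabrb1, with 1860, and the remainder was non-coding exon sequence. Exons of Gabra4 and Gabra5 partly overlap genes on the opposite strand, which the strand-specific counting keeps apart.

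RefSeq (GRCm38.p6) gave 10 promoter windows for 6 of the 7 genes, each of 250 bases before and 50 bases from the start site on. Gabrd had no entry. The windows below are shown because Gabra4 and Gabrb2 moved together from mouse to mouse and Gabra3 moved against Gabra4, and because the first start of Gabrb1 lies within the counted span of Gabra4. Capitals mark matches, on either strand, to a cAMP response element (TGACGTCA), its core (TGACG), an AP-1 site (TGANTCA), an EGR site (GCGNGGGCG) or a TATA box (TATAAA), and the core is also contained in the full cAMP response element.
Gabra4, chr5:71658259-71658558, minus strand: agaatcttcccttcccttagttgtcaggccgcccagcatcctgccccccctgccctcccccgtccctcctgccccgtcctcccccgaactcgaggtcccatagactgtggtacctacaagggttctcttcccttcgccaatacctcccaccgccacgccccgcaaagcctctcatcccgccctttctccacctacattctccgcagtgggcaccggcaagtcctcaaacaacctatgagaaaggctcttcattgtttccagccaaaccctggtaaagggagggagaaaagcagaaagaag
Gabrb2, chr11:42420190-42420489, plus strand: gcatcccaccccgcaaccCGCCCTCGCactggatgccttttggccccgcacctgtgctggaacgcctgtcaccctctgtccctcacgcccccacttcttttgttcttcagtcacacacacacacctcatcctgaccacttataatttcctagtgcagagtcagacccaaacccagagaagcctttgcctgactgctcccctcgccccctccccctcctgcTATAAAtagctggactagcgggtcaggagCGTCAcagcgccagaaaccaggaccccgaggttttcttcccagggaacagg
Gabra3, chrX:72656870-72657169, minus strand: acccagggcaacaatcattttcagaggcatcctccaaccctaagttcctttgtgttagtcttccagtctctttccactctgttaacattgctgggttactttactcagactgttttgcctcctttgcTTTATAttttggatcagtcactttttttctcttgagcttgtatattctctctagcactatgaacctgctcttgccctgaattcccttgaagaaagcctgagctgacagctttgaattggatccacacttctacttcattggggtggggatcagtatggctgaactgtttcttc
Gabrb1, chr5:71657671-71657970, plus strand: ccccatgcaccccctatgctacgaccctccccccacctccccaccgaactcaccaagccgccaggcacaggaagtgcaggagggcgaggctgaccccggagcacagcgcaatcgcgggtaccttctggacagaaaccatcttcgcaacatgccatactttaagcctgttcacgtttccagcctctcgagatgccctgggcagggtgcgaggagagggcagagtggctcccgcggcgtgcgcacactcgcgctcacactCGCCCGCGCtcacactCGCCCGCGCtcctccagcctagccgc

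The promoters of Gabra4 and Gabrb2 did not have a motif in common. The Gabra4 window held none of the 5 motifs. The first Gabrb2 window held a TATA box that began 30 bases before the start site, an EGR match and a core that began 1 base before the start. The Gabra3 window held 1 TATA match, on the opposite strand, 123 bases upstream. The Gabrb1 window held 2 EGR matches, starting 8 and 24 bases after the start site. None of the 10 windows held the full cAMP response element or the AP-1 site. Over all 32851 RefSeq promoters of this length, 1.79% held the full cAMP response element, 20.8% the core, 7.81% the AP-1 site, 5.55% the EGR site and 13.6% the TATA box. Base composition differed as well, since the Gabra2 promoter had 70% G and C with 25 CpG dinucleotides, the Gabra3 window shown here had 43% and 0, and the median over all promoters was 52.7% and 7.

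Levels of different genes were compared per length, as TPM (a transcripts-per-million value) computed from the counts and the counted exon bases. Gabra5, the alpha subunit of extrasynaptic receptors on hippocampal pyramidal cells, had the highest level of the 7 genes, 278 ± 22.0 TPM in mice labelled LPAR2-/- and 278 ± 23.0 TPM in WT mice (SD, n = 7). It exceeded Gabra4 in every mouse, by a ratio of means of 1.73, without an overlap of their ranges in either group. Gabra4, the alpha subunit that pairs with delta in granule cells of the dentate gyrus, followed with 164 ± 23.1 and 157 ± 8.68 TPM. Gabra2, an alpha subunit known from synapses on the axon initial segment of pyramidal cells, had 129 ± 23.2 and 165 ± 43.0 TPM. The order of these neighbours was not the same in the groups: Gabra4 lay above Gabra2 in 7 of 7 mice labelled LPAR2-/- but in 2 of 7 WT mice.

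The other 4 genes fell into a middle and a low pair. Gabrb2, a beta subunit of many synaptic receptors, had 99.6 ± 9.66 TPM in mice labelled LPAR2-/- and 97.2 ± 5.55 TPM in WT mice. Gabrd, the delta subunit, had 96.0 ± 12.2 and 81.3 ± 6.40 TPM, and was below Gabrb2 in 5 of 7 and in 7 of 7 mice, respectively, with overlapping ranges. Gabrd exceeded the next gene, Gabrb1, by 4.91-fold and in every mouse. Gabrb1, another beta subunit, had 17.3 ± 1.502 and 18.9 ± 1.59 TPM, and Gabra3, an alpha subunit better known from the cerebral cortex and from monoaminergic neurons, had 14.1 ± 5.68 and 18.5 ± 10.5 TPM. The low pair overlapped, with Gabrb1 above Gabra3 in 5 of 7 mice of either group.

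**Figure D1:**
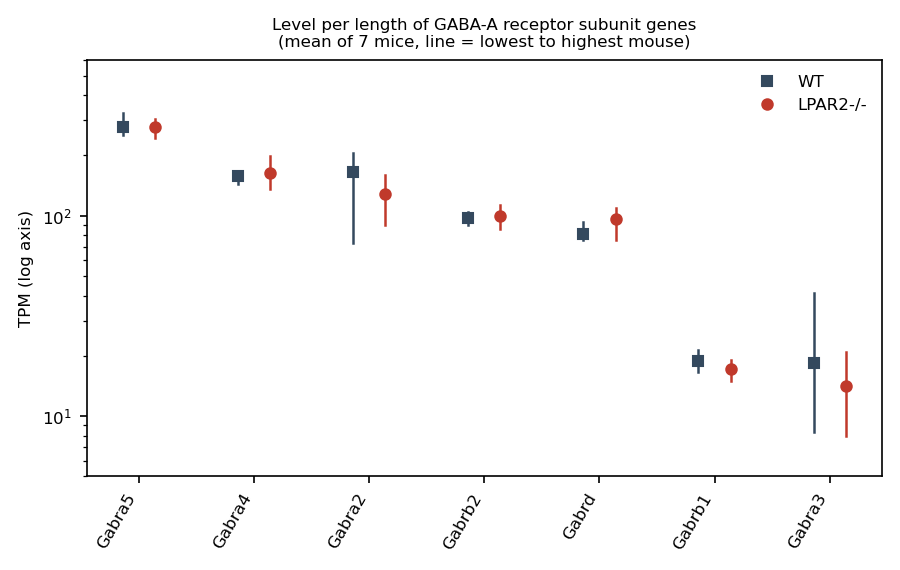
Level per length (TPM, log axis) of the 7 GABA-A receptor subunit genes, as the mean of 7 WT mice (squares) and 7 mice labelled LPAR2-/- (circles) with a line from the lowest to the highest mouse. Gabra5 is highest at 278 TPM in both groups, and Gabrb1 and Gabra3 lie lowest at 14.1 to 18.9 TPM.

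The first question was whether the 7 subunit genes differed between mice labelled LPAR2-/- and WT mice. None of the 7 passed the adjusted threshold of 0.05 (edgeR quasi-likelihood test with Benjamini-Hochberg adjustment over all genes tested), beside 6.77% of all 14897 genes, of which 3.32% were higher and 3.46% lower. With an unadjusted p under 0.05 there was 1 of 7, Gabrd, beside 22.4% of all genes. DESeq2 called 1 of 7, also Gabrd, beside 1393 or 9.73% of the 14319 genes to which it gave an adjusted p. Limma on the authors' normalized values called 0 of 7, beside 5.52% of all genes with a pseudocount of 1 and 5.82% without one. Estimates were above 0 for 3 genes and below 0 for 4, with a median log2 fold change of -0.0047, against 0.0029 over all genes tested. Ranges of the groups did not separate for any of the 7, as they did for 1.77% of all genes. In bulk tissue, fewer cells of a type and less RNA per cell cannot be told apart.

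**Figure D2:**
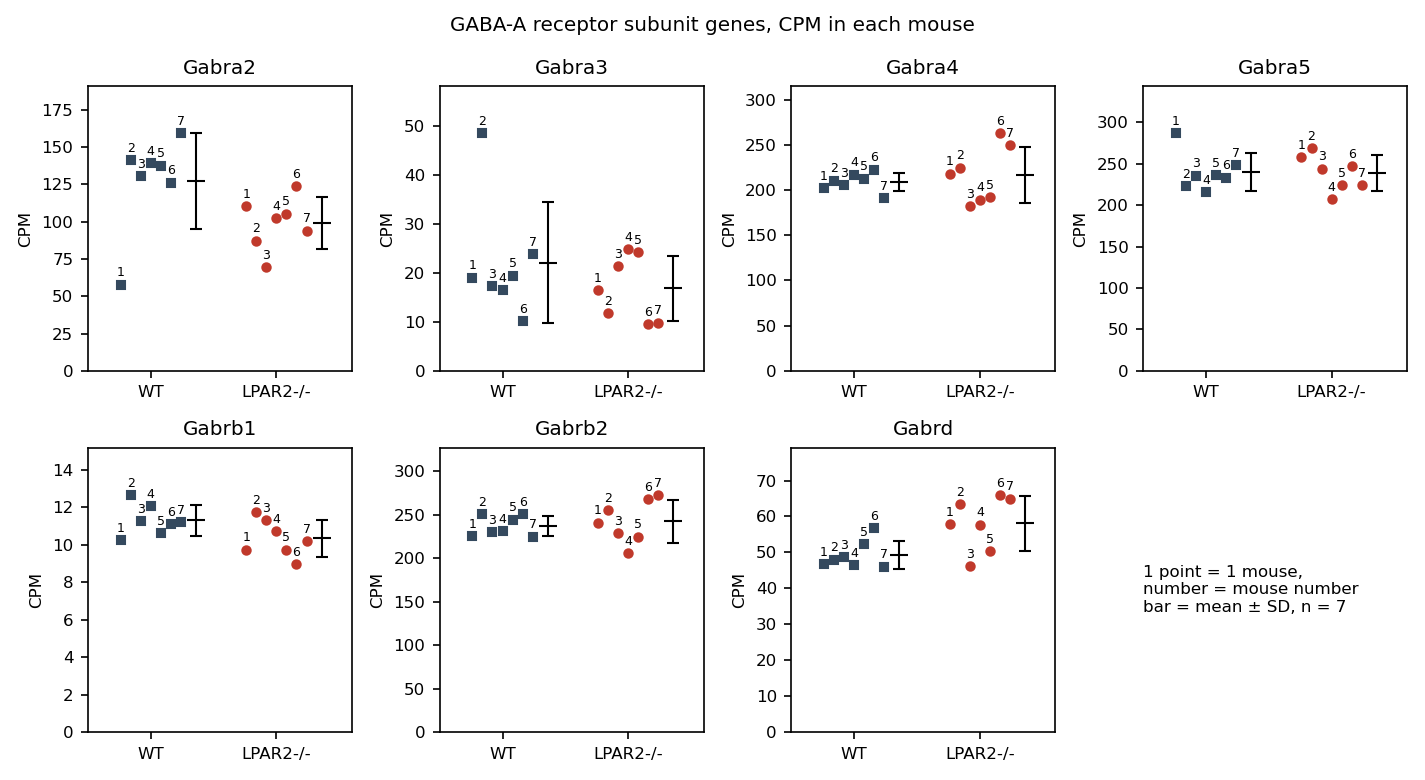
CPM of each of the 7 subunit genes in every WT mouse (squares) and every mouse labelled LPAR2-/- (circles), with mouse numbers and with mean ± SD of 7 mice as bars. WT mouse 1 is at 57.7 CPM for Gabra2 below all others, WT mouse 2 is at 48.4 CPM for Gabra3 above all others, and 5 of 7 mice labelled LPAR2-/- are above the WT mice for Gabrd.

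Gabrd, the delta subunit of tonic receptors, came closest to the threshold. CPM had a lowest value of 46.2, a median of 57.9 and a highest value of 66.0 in mice labelled LPAR2-/-, and 46.1, 48.0 and 56.7 in WT mice. Of the mice labelled LPAR2-/-, 5 of 7 lay above every WT mouse, while mouse 3 with 46.2 CPM and mouse 5 with 50.3 CPM lay within the WT range. The log2 fold change was 0.24 (SE 0.0763, 95% interval 0.07 to 0.40, adjusted p = 0.0754), or 1.178-fold. An exact two-sided permutation test on the mean log2 CPM of this gene alone gave p = 0.0233, where 7 against 7 mice allow no p below 0.000583. The call depended on the setting: the adjusted p was 0.0404 with DESeq2, 0.0478 with upper quartile scaling and 0.0160 without mouse 3 labelled LPAR2-/-, where the log2 fold change was 0.29, and without any other single mouse it reached up to 0.139. Mouse 3 labelled LPAR2-/- stood apart in its sum of the 6 oligodendrocyte markers, 3878 CPM against 969 to 1944 CPM in the others of its group and 1201 to 2029 CPM in WT mice, and had the highest sum of the 4 measured CA3 markers of all mice, 136 CPM. Mice labelled LPAR2-/- ranked 3, 5, 4, 1, 2, 7 and 6 in rising Gabrd level. Their dentate granule cell marker sums were, in this order, 672, 737, 886, 814, 924, 1073 and 1133 CPM. WT mice ranked 7, 4, 1, 2, 3, 5 and 6, with sums of 754, 927, 696, 863, 888, 814 and 1053 CPM. The part of all these markers in the Gabrd levels was not tested.

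Gabrd shared much of its variation between mice with Gabra4, its usual alpha partner in the dentate gyrus, as given below, so that their ratio was also computed in each mouse. The ratio of TPM of Gabrd to Gabra4 was 0.589 ± 0.0416 in mice labelled LPAR2-/- (lowest 0.551, median 0.574, highest 0.669) and 0.518 ± 0.0286 in WT mice (lowest 0.470, median 0.520, highest 0.558). Again 5 of 7 mice labelled LPAR2-/- lay above every WT mouse, and 6 of 7 WT mice lay below every mouse labelled LPAR2-/-. The ratio was formed after the values of both genes were known and was not tested.

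Gabra2 was lower in most mice labelled LPAR2-/-, with 1 WT mouse far from the others. CPM ranged from 69.3 through a median of 102 to 124 in mice labelled LPAR2-/-, and from 57.7 through 137 to 159 in WT mice. The value of 57.7 belonged to WT mouse 1, which lay below all other 13 mice, whereas the other 6 WT mice had 126 to 159 CPM and lay above every mouse labelled LPAR2-/-. Over all mice the log2 fold change was -0.36 (SE 0.183, 95% interval -0.76 to 0.03, adjusted p = 0.257), and the exact permutation test gave p = 0.152. Without WT mouse 1 it was -0.49 with an adjusted p = 0.0113, so that the call rested on this library. Its total count of 21405399 was within the range of the others, its sum of dentate granule cell markers, 696 CPM, was the lowest of the WT mice, and it had the highest Gabra5 level of all mice, 287 CPM. The part of these values in the Gabra2 level was not tested.

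In terms of composition, Gabra2 made up 16.1% of the summed TPM of the 7 genes in mice labelled LPAR2-/- and 20.1% in WT mice, and Gabrd 12.0% and 9.97%. The sum itself was 797 ± 58.7 TPM and 816 ± 37.3 TPM, which overlapped. The ratio of Gabra2 to Gabra4 was 0.790 ± 0.131 in mice labelled LPAR2-/- and 1.05 ± 0.284 in WT mice, with 6 of 7 WT mice above and WT mouse 1, at 0.492, below every mouse labelled LPAR2-/-.

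**Figure D3:**
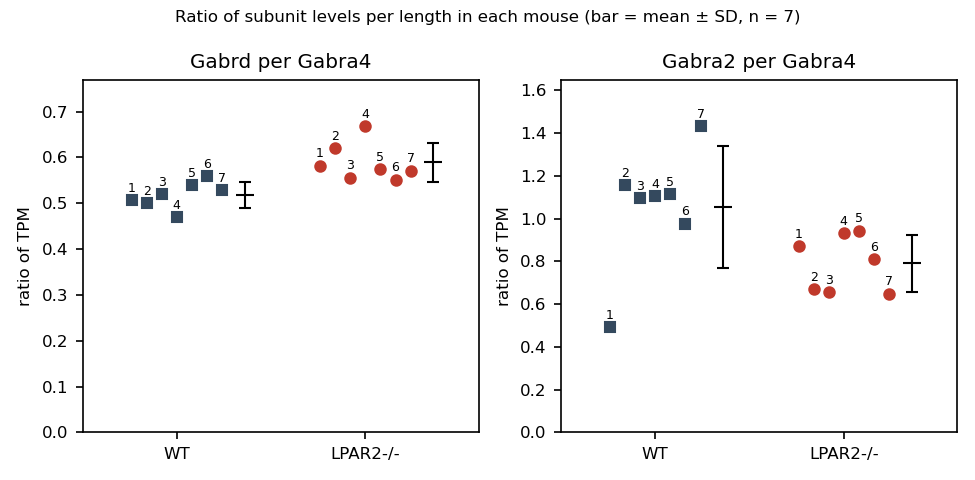
Ratio of TPM of Gabrd to Gabra4 (left) and of Gabra2 to Gabra4 (right) in every mouse, with mouse numbers and with mean ± SD of 7 mice as bars. For Gabrd, 5 of 7 mice labelled LPAR2-/- are above the highest WT mouse at 0.558, and for Gabra2, 6 of 7 WT mice are above all mice labelled LPAR2-/- and WT mouse 1 is below them.

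Gabra3 varied most between mice. CPM ranged from 9.55 through 16.5 to 24.9 in mice labelled LPAR2-/- and from 10.1 through 19.05 to 48.4 in WT mice, at 154 to 1064 counts. The groups overlapped, and the coefficient of variation was 39.6% and 55.7%. The log2 fold change was -0.39 (SE 0.327, 95% interval -1.09 to 0.32, adjusted p = 0.525, exact permutation p = 0.345), an interval that holds differences of 2-fold and more. Without WT mouse 2, the mouse with 48.4 CPM, the log2 fold change was -0.063 with an adjusted p = 0.931. WT mouse 2 also had the highest sum of the 5 CA1 markers, 333 CPM against 98.2 to 136 CPM in the other WT mice, and mice 4 and 5 labelled LPAR2-/-, which had the highest Gabra3 levels of their group, had its highest CA1 sums, 171 and 154 CPM. The other WT mice did not follow this order. WT mouse 7, with 23.9 CPM of Gabra3, and WT mouse 6, with 10.1 CPM, had CA1 sums of 112 and 113 CPM. WT mouse 2 also had the highest sum of the 5 cortex markers of all mice, 127 CPM. In mice 4 and 5 labelled LPAR2-/- the cortex sum was 103 CPM each, within 96.9 to 116 CPM for their group. The part of these markers in the Gabra3 level was not tested.

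Gabrb1 was the least abundant beta subunit. CPM ranged from 8.96 through 10.2 to 11.7 in mice labelled LPAR2-/- and from 10.3 through 11.2 to 12.7 in WT mice. Of the mice labelled LPAR2-/-, 4 of 7 lay below every WT mouse, while 2 of 7 WT mice lay above every mouse labelled LPAR2-/-. The log2 fold change of -0.13 (SE 0.0701, 95% interval -0.28 to 0.02, adjusted p = 0.300, exact permutation p = 0.0676) did not pass the test. It rested on 150 to 278 counts per mouse.

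Gabra4 and Gabrb2 had near equal means but a wider spread in mice labelled LPAR2-/-. For Gabra4, CPM ranged from 182 through 218 to 263 in mice labelled LPAR2-/- and from 191 through 210 to 223 in WT mice, with coefficients of variation of 14.3% and 4.94%. For Gabrb2, the values were 205, 241 and 272 CPM against 225, 231 and 251 CPM, with coefficients of variation of 10.1% and 4.92%. For both genes, 3 of 7 mice labelled LPAR2-/- lay above and 2 of 7 lay below every WT mouse. The difference in spread was seen after the fact and was not tested. The log2 fold changes were 0.06 (SE 0.0742, 95% interval -0.10 to 0.21, adjusted p = 0.711, exact permutation p = 0.591) and 0.03 (SE 0.0578, 95% interval -0.09 to 0.16, adjusted p = 0.786, exact permutation p = 0.665).

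Gabra5 was the most even of the alpha subunits between the groups. CPM ranged from 207 through 244 to 269 in mice labelled LPAR2-/- and from 216 through 236 to 287 in WT mice. The groups overlapped, except that the extremes of each group, mouse 4 labelled LPAR2-/- and WT mouse 1, lay outside of the other group. The log2 fold change was -0.0047 (SE 0.0651, adjusted p = 0.981, exact permutation p = 0.947), and its 95% interval of -0.14 to 0.13 bounds a difference of either sign. Its sign turned under upper quartile scaling, where it was 0.014. That scaling moved all genes alike, with a median log2 fold change of 0.023 over all genes tested, against 0.0029 in the main fit. The turn is thus not particular to Gabra5.

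**Figure D4:**
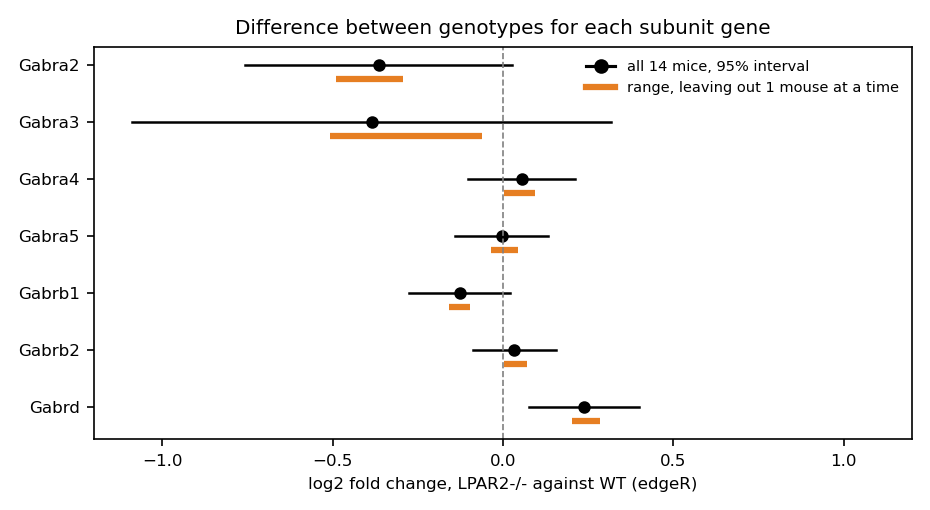
Log2 fold change of each of the 7 subunit genes, mice labelled LPAR2-/- against WT, over all 14 mice with its 95% interval (black), and the range of the estimate when each mouse is left out in turn (orange). The interval, which is not adjusted for the number of genes, excludes 0 for Gabrd only, with 0.07 to 0.40, and is widest for Gabra3, with -1.09 to 0.32.

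The second question was how the subunit genes varied together from mouse to mouse within the groups. For this, log2 CPM values were correlated over the 14 mice after subtraction of the group means, for all 21 pairs, with permutation tests and Benjamini-Hochberg adjustment over the pairs. Gabra4 rose and fell with Gabrb2 (Pearson r = 0.87, p = 0.00113, adjusted p = 0.0171, Spearman rho = 0.93, p = 0.00026, adjusted p = 0.00546). Each r was also computed without the 2 mice farthest from the median of the first gene named in the pair. These 2 extreme mice can thus differ between pairs. For Gabra4 and Gabrb2, r was then 0.91, and r was 0.90 within the 7 mice labelled LPAR2-/- and 0.72 within the 7 WT mice. Gabra4 also moved with Gabrd (r = 0.83, p = 0.00163, adjusted p = 0.0171, rho = 0.82, p = 0.00081, adjusted p = 0.0085), with r = 0.73 without the 2 extreme mice and with r = 0.88 and 0.68 within the groups. Gabrb2 and Gabrd passed by rank only (r = 0.68, p = 0.026, adjusted p = 0.109, rho = 0.78, p = 0.0023, adjusted p = 0.0121), with r = 0.84 without the 2 extreme mice and with r = 0.66 and 0.73 within the groups.

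Gabra3 ran the other way. It was high where Gabra4 was low (r = -0.70, p = 0.0039, adjusted p = 0.0273, rho = -0.83, p = 0.00151, adjusted p = 0.0106). Without the 2 mice most extreme in Gabra3, WT mouse 2 among them, r was -0.94. The relation was r = -0.95 within the mice labelled LPAR2-/- and r = -0.40 within the WT mice, where WT mouse 2 combined the highest Gabra3 level with a median Gabra4 level, 210 CPM. Gabra3 against Gabrd (r = -0.67, p = 0.01, adjusted p = 0.0525, rho = -0.69, p = 0.0127, adjusted p = 0.0532, r = -0.75 without the 2 extreme mice, -0.82 within the mice labelled LPAR2-/- and -0.54 within the WT mice) and Gabra3 against Gabrb2 (r = -0.54, p = 0.0446, adjusted p = 0.156, rho = -0.67, p = 0.0194, adjusted p = 0.0681, r = -0.89 without the 2 extreme mice, -0.96 within the mice labelled LPAR2-/- and 0.09 within the WT mice) did not pass the adjusted threshold. Neighbourhood on chromosome 5 did not go along with a relation that passed: Gabra4 and Gabrb1 had r = -0.32 (p = 0.345, adjusted p = 0.606, rho = -0.21, p = 0.506, adjusted p = 0.875, r = 0.15 without the 2 extreme mice, -0.49 and 0.23 within the groups). The other 14 pairs, among them all pairs with Gabra5 or Gabra2, did not pass by either measure.

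These relations could also be followed in single mice. Mice 6 and 7 labelled LPAR2-/- had the highest Gabra4 levels of all, 263 and 249 CPM, the highest Gabrb2 levels, 268 and 272 CPM, and low Gabra3 levels, 9.55 and 9.86 CPM. Mice 3, 4 and 5 of this group had the opposite pattern, with Gabra4 at 182, 189.5 and 192 CPM and Gabra3 at 21.4, 24.9 and 24.2 CPM. Among the WT mice, mouse 6 had the highest Gabra4 and Gabrd and the lowest Gabra3 level, 223, 56.7 and 10.1 CPM. The summed level of the 7 dentate granule cell markers, all of which had counts, ranged from 672 to 1133 CPM in mice labelled LPAR2-/- and from 696 to 1053 CPM in WT mice, without a difference between the groups that passed (exact permutation p = 0.664). In the order of rising Gabra4 level, the marker sums were 672, 886, 737, 814, 924, 1073 and 1133 CPM in mice 3, 4, 5, 1, 2, 7 and 6 labelled LPAR2-/-. In the same order they were 754, 696, 888, 863, 814, 927 and 1053 CPM in WT mice 7, 1, 3, 2, 5, 4 and 6. The granule cell sums were thus mostly higher in mice with more Gabra4, in both groups. Other lists ran the other way in the mice labelled LPAR2-/-. In the same order of mice, the sums of the 10 interneuron markers were 263, 232, 254, 248, 186, 191 and 147 CPM, and those of the 4 measured CA3 markers were 136, 79.6, 99.8, 88.5, 106, 51.8 and 50.8 CPM. In the WT order, interneuron sums were 232, 231, 225, 239, 241, 224 and 184 CPM and CA3 sums 129, 126, 92.6, 70.1, 83.8, 90.9 and 95.6 CPM, with the lowest interneuron sum again in the mouse with the most Gabra4. Total counts were lowest in mice 7 and 6 labelled LPAR2-/-, 15434620 and 16663752, and in WT mouse 6, 16373410, each with a high Gabra4 level, and WT mouse 7, with the lowest Gabra4 level of the WT mice, had the next lowest WT total, 17412871. Sums of the oligodendrocyte and thalamus markers were also highest in mouse 3 labelled LPAR2-/-, 3878 and 66.5 CPM. Both were lowest in mouse 6 of that group, 969 and 36.7 CPM. In WT mice 7 and 6, the lowest and highest in Gabra4, the oligodendrocyte sums were 2029 and 1425 CPM and the thalamus sums 52.3 and 56.2 CPM. The part of these and the other marker lists and of library size in these relations was not tested.

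**Figure D5:**
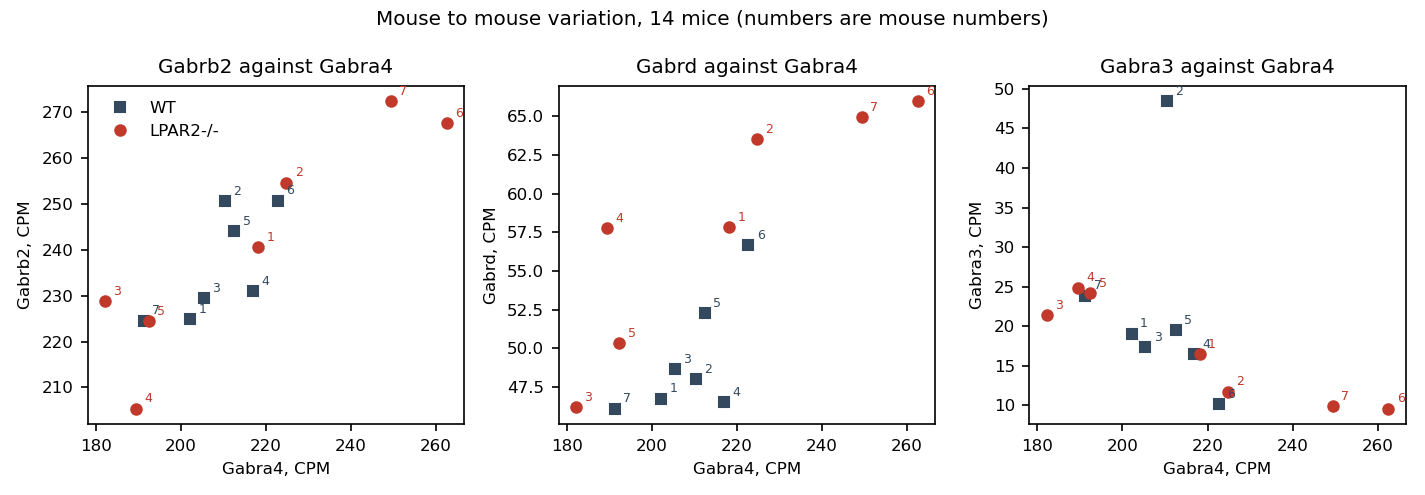
Gabrb2, Gabrd and Gabra3 against Gabra4 in the 14 mice, all in CPM, with WT mice as squares, mice labelled LPAR2-/- as circles and mouse numbers beside the points. Gabrb2 and Gabrd are higher in mice with more Gabra4 (r = 0.87 and 0.83 after subtraction of the group means), and Gabra3 is lower (r = -0.70), with WT mouse 2 apart.

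For each subunit gene, the 2 genes with the most similar pattern over the 14 mice were named, by Pearson correlation of log2 CPM after subtraction of the group means among all genes tested. These correlations were picked as the highest of many and carry no test. For Gabra4 they were Dbpht2 (r = 0.98) and Npnt, which encodes the matrix protein nephronectin (r = 0.97, 119 to 217 CPM). For Gabrb2 they were Calb1, the calcium buffer calbindin that marks granule cells among other neurons (r = 0.94, 248 to 421 CPM), and the splicing factor gene Sf3b3 (r = 0.94). For Gabrd they were Rogdi and Fbxo41 (both r = 0.96), and Fbxo41 encodes a neuronal F-box protein. Gabra3 was most like Gpr161, a receptor of the primary cilium (r = 0.96), and Cxxc4, an inhibitor of Wnt signalling (r = 0.96).

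Gabra5 was most like Wdr1, which encodes an actin-disassembly factor (r = 0.95), and Crmp1, a mediator of semaphorin signals in growing axons (r = 0.94). Gabrb1 had weaker companions, Unc13b, which encodes a priming factor of synaptic vesicles (r = 0.87), and Trp53inp2, a regulator of autophagy (r = 0.84). Unc13b was itself lower in mice labelled LPAR2-/- (log2 fold change -0.16, adjusted p = 0.0453), as the only one of these 14 genes to pass the threshold, beside 6.77% of all genes tested. Gabra2 was most like Ehmt1, a histone methyltransferase gene (r = 0.91, rho = 0.82), and Cdon, a co-receptor of hedgehog proteins (r = 0.85), although the rank correlation with Cdon was 0.42.

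The third question was whether other genes of the GABA system differed. Of 61 genes in 6 lists, 53 could be tested and 0 passed the threshold in the edgeR test, beside the 6.77% of all genes, with 30 estimates above and 23 below 0 and a median log2 fold change of 0.014. An unadjusted p under 0.05 was found for 6 of 53, beside 22.4% of all genes. DESeq2 called 2 of them, beside 9.73% of all genes, among them Ubqln1, a ubiquitin-like protein that stabilizes the receptor (log2 fold change -0.10, adjusted p = 0.0364). In the edgeR test the adjusted p of Ubqln1 was 0.0909. Leaving out 1 mouse gave 1 call in 2 of 14 cases: Akr1c14, an enzyme of neurosteroid synthesis, without mouse 2 labelled LPAR2-/- (0.69, adjusted p = 0.0346, against 0.110 with all mice), and Hap1, a trafficking factor, without WT mouse 5 (0.22, adjusted p = 0.0426, against 0.260).

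Other subunit and scaffold genes showed no difference that passed. Of 12 other subunit genes, 5 could be tested, 4 of them with estimates above 0. Gabra6, known from cerebellar granule cells, and Gabrp had no count in any mouse. Of 17 scaffold and trafficking genes, 11 had estimates above and 6 below 0, and Gphn, the scaffold gephyrin, had 117 and 111 CPM in mice labelled LPAR2-/- and WT mice (adjusted p = 0.266).

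Genes that make and clear GABA were likewise not called, with 5 of 9 estimates above 0. Gad1, the main GABA-synthesizing enzyme, had 372 and 395 CPM in mice labelled LPAR2-/- and WT mice (adjusted p = 0.240), Gad2, its synaptic form, 117 and 115 CPM (adjusted p = 0.946), and Slc32a1, the vesicular GABA transporter, 40.6 and 37.3 CPM (adjusted p = 0.687). Of 9 chloride transport genes, 4 estimates were above and 5 below 0, with Slc12a5, the neuronal chloride extruder KCC2, at 680 and 672 CPM (adjusted p = 0.867). Of 8 genes of the metabotropic GABA-B receptor, 3 had estimates above and 5 below 0, and of 5 tested neurosteroid genes, 3 were above and 2 below.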

How the data were processed

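Hippocampal RNA of 14 mice, 7 labelled LPAR2-/- and 7 WT, was analysed. Adapter trimming by the authors used cutadapt 1.18 and alignment used STAR against mm10. Per the file headers the deposited counts come from featureCounts 1.6.3 over exons with reverse-strand counting. A second deposited table of normalized values has lost its decimal points, so that the authors' values were read as a score in thousandths. Of 16038 entries matched by symbol, 99.9% of values of at least 0.1 lay within 1% of the count divided by DESeq2 size factor and gene length, up to 1 constant. No column was left unmatched (0 columns).

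Counts were tested with edgeR 4.0.16 in R 4.3.3 (quasi-likelihood with robust fit, TMM scaling, filterByExpr, Benjamini-Hochberg adjusted p under 0.05 over all 14897 genes) without covariates. CPM uses the TMM-scaled library size (log2 CPM with 2 as prior count), and TPM the counted exon length. Exact permutation tests ran over all arrangements of the mice, correlations over 1e+05 permutations within groups. Intervals are at 95%. Scripts were tested on simulated data with known changes. DESeq2 1.42.0, limma 3.58.1 on the normalized values (pseudocount 1 or none), other scalings and filters, and leaving out each mouse were alternatives. At 15434620 to 23258949 counts per mouse, the 7 genes had 150 to 6065 counts each. No pair of libraries of a group agreed within sampling noise (chi-square over its degrees of freedom at least 3.35 in 42 pairs). The text names all 7 genes, Lpar2, list genes past the threshold, the partners Gphn, Gad1, Gad2, Slc32a1 and Slc12a5, and the 2 most similar genes of each member. Ubqln1, Akr1c14 and Hap1 were named after their values were seen. The genes and lists were chosen with earlier results of these data known. Some genes of the lists are not reported here. Promoters come from RefSeq (GRCm38.p6), exon annotation from GENCODE.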

Additional observations from a re-analysis of the deposited data

Results flagged for a closer look

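Of 14 groups of 7 values, the level of each of the 7 subunit genes in either genotype, 2 held a mouse far from the rest by Dixon's test at 95%, which chance gives for about 1 in 20 groups. The Gabra2 level in WT mouse 1 was 57.7 CPM against 126 to 159 CPM in the other 6 WT mice, with a gap of 0.676 of the group's range. The Gabra3 level in WT mouse 2 was 48.4 CPM against 10.1 to 23.9 CPM in the other 6 WT mice, with a gap of 0.641 of the range. The causes were not tested.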

How the results depend on the processing

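The count of subunit genes called was 0 of 7 with all mice and 0 to 1 when 1 mouse was left out, and it was 1 with DESeq2 and 1 with upper quartile scaling. That gene was Gabrd with DESeq2 (log2 fold change 0.24, adjusted p = 0.0404), with upper quartile scaling (0.26, adjusted p = 0.0478) and without mouse 3 labelled LPAR2-/-, and it was Gabra2 without WT mouse 1. Leaving out 1 mouse at a time gave log2 fold changes of 0.20 to 0.29 for Gabrd, -0.49 to -0.29 for Gabra2, -0.51 to -0.063 for Gabra3, and -0.035 to 0.043 for Gabra5, whose sign also turned with upper quartile scaling (0.014). The sign of Gabra2, Gabra3, Gabra4, Gabrb1, Gabrb2 and Gabrd held under all 22 alternatives tried. Gad2 ranged from -0.067 to 0.12 without 1 mouse and was -0.015 and -0.018 in limma with and without a pseudocount and -0.011 with the mouse number as a block, and Slc12a5 ranged from -0.014 to 0.038 without 1 mouse. Calls in the other GABA lists were 0 with all mice, 2 with DESeq2 and 0 to 1 without 1 mouse. Over all genes, 1009 calls, 494 higher and 515 lower, became 567 to 1385, 275 to 660 higher and 292 to 725 lower, without 1 mouse. The total fell by over 1.5 times without mouse 1 labelled LPAR2-/- (611) and without WT mouse 2 (567), 4 (669), 5 (596) or 6 (654), and the genes lower also without mouse 5 labelled LPAR2-/- (336). Higher genes made up 49.0% of all calls, and 62.0% with upper quartile scaling. That scaling moved all genes alike, Gabra5 and Gabrd included, with a median log2 fold change of 0.023 against 0.0029 in the main fit. Mouse numbers did not pair the mice, since 3 of 7 same-numbered pairs had a correlation over 0.1 (range -0.33 to 0.31), and a fit with the replicate block gave 586 calls, 314 higher and 272 lower, with no subunit gene called. Rank correlation in place of Pearson kept 4 of the 14 most similar genes. The causes of these changes were not tested. The lowest counts per mouse were 150 for Gabrb1, with an SE of 0.0701, and 154 for Gabra3, with an SE of 0.327.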
